A study of Mus musculus with 6 samples.

Results

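The genes described here are 10 genes for chemokines and other secreted immune modulators, out of 27179 genes in each of the authors' 2 comparison tables. They were taken by symbol from those tables. Several were selected on the deposited fold changes, for large changes in one or the other knockdown, so the members' fold changes are a description and are not tested again here. The members are the chemokine genes Cxcl1, Cxcl5, Cxcl10, Cxcl12, Cxcl14, Ccl2, Ccl5 and Ccl7, the interleukin-1 receptor antagonist gene Il1rn and the pentraxin gene Ptx3. RNA was sequenced from C2C12, an immortalised mouse myoblast line, 48 h after the medium was changed to low horse serum with insulin to start differentiation into muscle. There were 3 groups of 2 libraries, which the series' design text calls biological duplicates: cells carrying a scrambled shRNA that targets no gene, cells carrying an shRNA against BAF250A, and cells carrying an shRNA against BRD9. All groups were thus stably transfected C2C12 cells at the same time point, and the labels do not say whether a line is 1 clone or a pool. SWI/SNF enzymes move nucleosomes and exist in several forms: BAF250A (gene Arid1a) marks the form called BAF, and BRD9 marks the form called ncBAF. By its title, the study asked how the need for these 2 forms differs during differentiation.

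Chemokines are small secreted proteins that bind G protein-coupled receptors on other cells and direct their movement, and their names follow the spacing of the first cysteines (CXC or CC). Many are switched on by NF-kappaB, the transcription factor that answers interleukin-1, TNF and microbial products, and a subset that includes Cxcl10 is switched on by interferon through STAT and IRF factors. Myoblasts and regenerating muscle are known to secrete chemokines that draw in neutrophils and monocytes, and Cxcl12 is known to guide migrating muscle progenitors. The interleukin-1 receptor antagonist occupies the interleukin-1 receptor without activating it. The long pentraxin PTX3 is a soluble pattern recognition molecule made by stromal and myeloid cells after inflammatory signals.

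The stretch just before the start site is shown for 5 members, because it is where the letters bound by NF-kappaB and by interferon-response factors were looked for, and because these members include Cxcl10, the member lowest relative to the controls in both knockdowns, and Cxcl14, Ptx3 and Il1rn, which were higher in the BAF250A knockdown. RefSeq entries were found for 6 of the 10 members (Cxcl1, Cxcl10, Cxcl12, Cxcl14, Il1rn and Ptx3), and Cxcl5, Ccl2, Ccl5 and Ccl7 were not matched. Each sequence is the 250 bases before the RefSeq start site, read 5′ to 3′ on the strand of the gene, from build GRCm38.p6. Capitals mark matches on either strand to a kappaB-like motif (GGGA, any 4 bases, then CC) or an interferon-response-like motif (GAAA, any 2 bases, then GAAA), and for Il1rn the first of its start sites is printed.
Cxcl10 (chr5:92348890-92349139, minus strand): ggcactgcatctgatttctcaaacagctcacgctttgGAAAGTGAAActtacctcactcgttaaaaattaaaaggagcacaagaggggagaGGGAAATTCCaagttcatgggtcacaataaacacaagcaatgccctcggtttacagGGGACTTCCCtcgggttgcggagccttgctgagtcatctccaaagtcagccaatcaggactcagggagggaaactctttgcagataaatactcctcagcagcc
Cxcl1 (chr5:90890995-90891244, plus strand): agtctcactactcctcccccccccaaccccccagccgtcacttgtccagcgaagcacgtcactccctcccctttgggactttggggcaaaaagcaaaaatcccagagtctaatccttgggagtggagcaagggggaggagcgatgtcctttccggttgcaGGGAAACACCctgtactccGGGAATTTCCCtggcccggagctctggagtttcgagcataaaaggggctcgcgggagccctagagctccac
Il1rn (chr2:24336610-24336859, plus strand): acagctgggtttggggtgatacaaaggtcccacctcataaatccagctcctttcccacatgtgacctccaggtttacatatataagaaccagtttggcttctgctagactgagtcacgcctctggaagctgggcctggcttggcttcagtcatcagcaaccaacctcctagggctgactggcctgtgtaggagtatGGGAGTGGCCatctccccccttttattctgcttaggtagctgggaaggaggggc
Cxcl14 (chr13:56296552-56296801, minus strand): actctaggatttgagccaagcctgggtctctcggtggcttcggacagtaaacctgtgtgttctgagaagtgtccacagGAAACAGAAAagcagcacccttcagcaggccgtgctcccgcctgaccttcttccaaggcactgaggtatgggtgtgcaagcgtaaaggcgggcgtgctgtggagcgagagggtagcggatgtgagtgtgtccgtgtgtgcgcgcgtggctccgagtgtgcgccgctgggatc
Ptx3 (chr3:66219637-66219886, plus strand): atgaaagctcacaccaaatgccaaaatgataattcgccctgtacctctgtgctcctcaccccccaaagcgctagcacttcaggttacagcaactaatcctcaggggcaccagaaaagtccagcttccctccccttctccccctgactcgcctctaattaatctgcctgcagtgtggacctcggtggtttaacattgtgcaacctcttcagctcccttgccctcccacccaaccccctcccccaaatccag
The Cxcl10 stretch held both motifs, with the interferon-response-like match beginning 213 bases before the start and kappaB-like matches at 159 and 103 bases, the nearer one matching on both strands. The Cxcl1 stretch held kappaB-like matches at 90 and 71 bases, the nearer one overlapping a match on the other strand. Il1rn held a kappaB-like match at 54 bases before its first start and Cxcl14 an interferon-response-like match at 172 bases, and neither motif matched in the stretches of Ptx3 and Cxcl12. The 6 matched members have 8 RefSeq starts, 3 of them of Il1rn, whose other starts held neither motif. The kappaB-like motif was thus before 3 of the 8 starts (Cxcl1, Cxcl10 and Il1rn) and before 17.6% of all 32851 starts in the table. The interferon-response-like motif was before 2 of the 8 (Cxcl10 and Cxcl14) and before 2.98% of all starts. With 150 bases before the start the interferon-response-like motif was in 0 of the 6 members and the kappaB-like motif in 3. A match describes these letters and is not a measured binding site.

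All values per library below are normalized counts, that is, reads divided by the size factor of the library, which corrects for depth. The deposited tables give only a mean over 4 libraries, but each library adds to that mean in steps of 1 read, so its reads could be worked out. For all 10 members 1 set of whole reads was found, which gave back the authors' log2 fold change within 4.2e-06. Of 2 sets of whole reads possible for Arid1a, 1 gave back its fold change and is used here. For Cxcl11, Ccl11, Xcr1, Ifnb1, Itgam, Thy1 and the leukocyte markers named below as under 5 counts, the reads are the single whole-number solution of the means, and the fold change was not given back. The size factors were 1.58 and 1.09 for the scrambled shRNA libraries and 0.801 and 0.773 for the BAF250A shRNA libraries. In the BRD9 table they were 0.841 and 0.782 for the BRD9 shRNA libraries, whose values were multiplied by 0.957 to put them on the scale of the other table. The library with the larger size factor is called the deeper one of its group, since which library carries the letter A or B is unknown. For several genes with few knockdown reads, such as Ccl17, Cxcr6 and Cxcl9, all recovered knockdown reads were even numbers. Those with scrambled shRNA were not. Ccl17 had 10 and 2 reads with BAF250A, 32 and 6 with BRD9 and 8 and 3 with scrambled shRNA. Ppbp, with 21 reads in a BRD9 library, was an exception. The cause of this difference between the libraries was not tested. Library totals were not analysed here. Both comparisons use the same 2 scrambled shRNA libraries, so their fold changes are set side by side and are not independent of each other.

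The scrambled shRNA libraries differed from each other more than the knockdown libraries did. Over 76 genes with a mean of 100 or more in those libraries (members, pathway genes, markers and the targeted genes), the median ratio of the higher to the lower scrambled shRNA library was 1.76, against 1.13 for BAF250A shRNA and 1.48 for BRD9 shRNA. The targeted gene Arid1a stood at 6536 and 3250 with scrambled shRNA, 1365 and 1072 with BAF250A shRNA and 4289 and 4454 with BRD9 shRNA. Brd9 stood at 799 and 1030 with scrambled shRNA, 1051 and 1000 with BAF250A shRNA and 189 and 385 with BRD9 shRNA. Each targeted gene was thus lowest in its own knockdown. The tables do not name the numerator, so the sign of every fold change was read from these genes. Their deposited log2 fold changes were -1.95 for Arid1a with BAF250A and -1.60 for Brd9 with BRD9. The same sign was used to tell the control libraries from the knockdown libraries.

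By the authors' deposited values, 7 of the 10 members were called in the BAF250A knockdown, 4 higher and 3 lower, at an adjusted p below 0.05 by the DESeq2 Wald test, where 28.7% of 16450 tested genes were called (11.2% higher and 17.5% lower). In the BRD9 knockdown 7 were called as well, 3 higher and 4 lower, where 14.4% of 17198 tested genes were called (5.11% higher and 9.33% lower). All 10 members had an adjusted p in both tables, and since the members were picked partly for these changes, nothing is read from these counts. Cxcl12, Cxcl14 and Ptx3 were called higher and Cxcl10, Ccl2 and Ccl5 lower in both knockdowns. Il1rn was called higher only in the BAF250A table and Cxcl5 lower only in the BRD9 table, and the difference between the knockdowns was not tested for members. The median log2 fold change of the members was 0.60 with BAF250A and -1.19 with BRD9 in the authors' deposited tables, beside -0.18 and -0.15 over all tested genes.

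**Figure D1:**
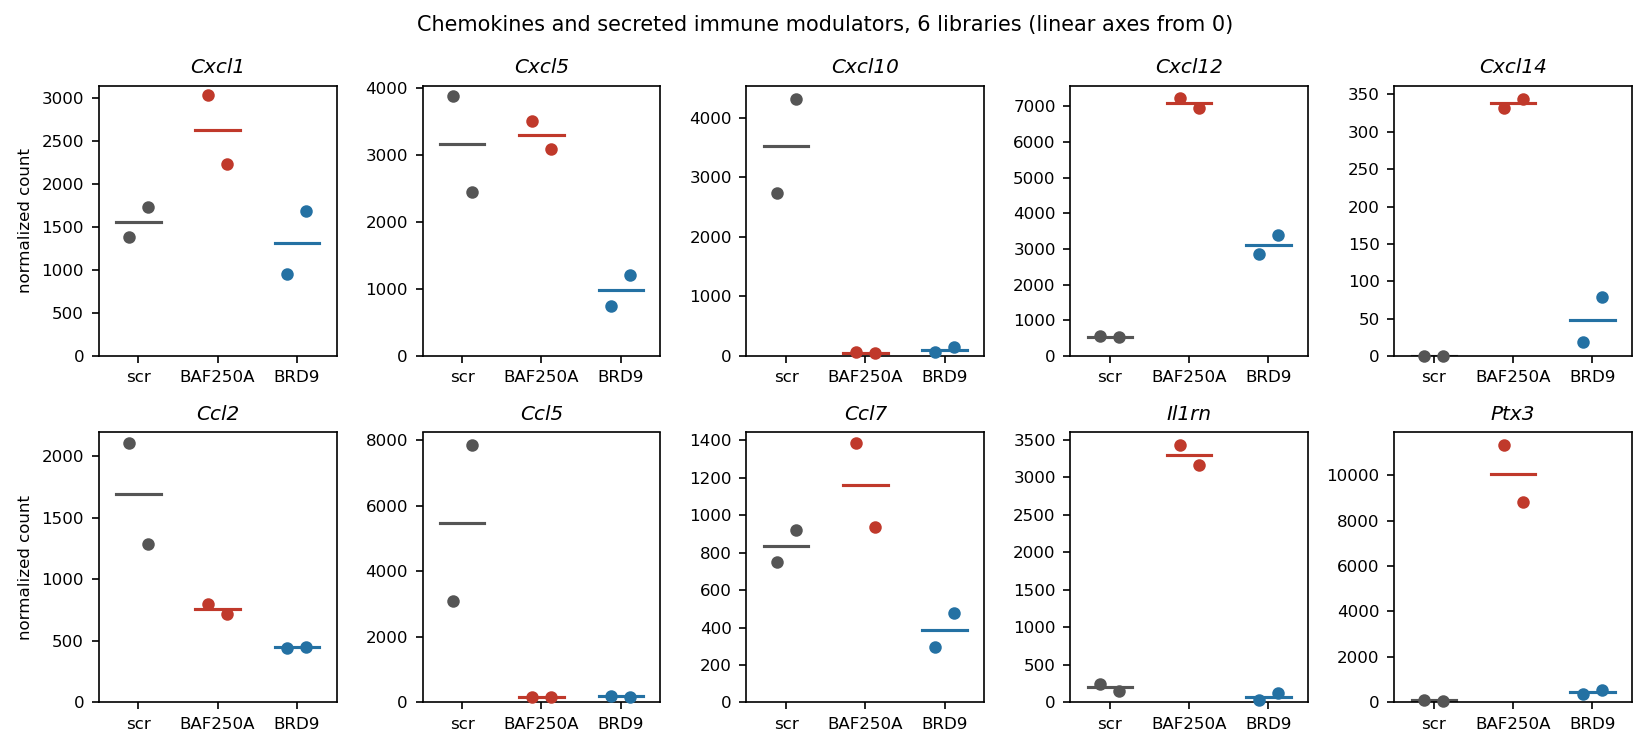
Normalized count (linear vertical axis from 0, its own range per gene) of the 10 members in the scrambled (scr), BAF250A and BRD9 shRNA groups. Points are libraries, the deeper one on the left of each pair, and bars are group means of 2 libraries. Cxcl10 and Ccl5 are near the bottom of the axis in all 4 knockdown libraries, and Ptx3 is at 11309 and 8799 in the BAF250A group against 105 and 79.5 with scrambled shRNA.

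**Figure D2:**
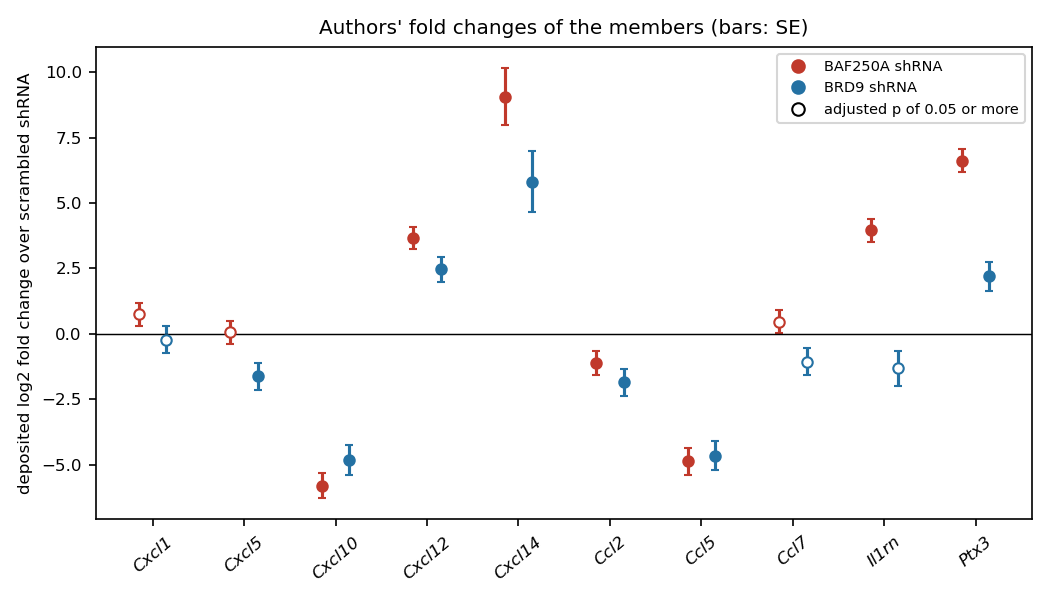
The authors' log2 fold change of knockdown over scrambled shRNA (vertical axis) with its standard error (bars) for the 10 members, BAF250A in red and BRD9 in blue. Filled points have an adjusted p below 0.05. Values run from -5.80 for Cxcl10 to 9.06 for Cxcl14 in the BAF250A knockdown.

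Among the 10 members, Cxcl10 and Ccl5, whose products attract T cells, had the lowest values in the knockdowns relative to the controls. Cxcl10 encodes a ligand of the receptor CXCR3 that is a standard interferon-induced gene (gene 15945, chromosome 5, 92346638 to 92348889 on the minus strand of mm10, protein coding). Its normalized count was 2737 and 4324 in the scrambled shRNA libraries, 59.9 and 54.3 in the BAF250A libraries and 61.4 and 149 in the BRD9 libraries. All 4 knockdown libraries were below both controls, and the ratio of the control mean to the knockdown mean was 61.8 with BAF250A and 33.5 with BRD9. In the authors' deposited tables its log2 fold change was -5.80 (SE 0.47) with BAF250A and -4.83 (SE 0.56) with BRD9. The size of the BRD9 ratio depended on the library: the log2 ratio of the group means was -5.07 with both BRD9 libraries. It was -4.56 without the deeper BRD9 library and -5.84 without the shallower one. The promoter printed above for this gene holds both motifs. Art3 overlaps Cxcl10 on the other strand, and the labels do not say whether reads were counted by strand.

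Ccl5, also called RANTES, encodes a chemokine that attracts T cells and monocytes (gene 20304, chromosome 11, 83525778 to 83530518, minus strand). The scrambled shRNA libraries stood at 3087 and 7844, a ratio of 2.54 between replicates that was above the median of 1.76 given above. The BAF250A libraries stood at 170 and 168 and the BRD9 libraries at 208 and 159. Both knockdowns were thus far below both controls, and the BAF250A and BRD9 values overlapped. The authors' deposited log2 fold changes were -4.87 (SE 0.51) and -4.66 (SE 0.55). Without the shallower scrambled shRNA library, which has the higher value, the log2 ratio of group means moved from -5.02 to -4.19 with BAF250A and from -4.90 to -4.07 with BRD9.

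The monocyte attractants Ccl2 and Ccl7, neighbouring genes on chromosome 11 encode ligands of the receptor CCR2 and differed in their calls. Ccl2 (gene 20296, 82035571 to 82037453, plus strand) stood at 2110 and 1284 with scrambled shRNA, 799 and 722 with BAF250A shRNA and 440 and 454 with BRD9 shRNA. Both knockdowns were below both controls, and the BRD9 libraries were below the BAF250A libraries. Its log2 fold change in the authors' deposited tables was -1.13 (SE 0.46) with BAF250A and -1.86 (SE 0.51) with BRD9. The BAF250A call, at an adjusted p of 0.047 by the authors' Wald test, was lost at an adjusted p below 0.01, with a Bonferroni adjustment, without the filter on low means, and with an empirical null. The overlapping gene Gm17268 lies on the strand opposite to Ccl2.

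Ccl7 (gene 20306, 82045712 to 82047525, plus strand) stood at 750 and 921 with scrambled shRNA, 1388 and 938 with BAF250A shRNA and 296 and 480 with BRD9 shRNA. The BAF250A values were above both controls, the lower one by little, and the BRD9 values were below both controls. In the authors' deposited tables the log2 fold changes were 0.47 (SE 0.45) and -1.06 (SE 0.52), and neither was called. The BAF250A and BRD9 libraries of Ccl7 did not overlap.

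The neutrophil attractants Cxcl1 and Cxcl5 encode ligands of CXCR2 and lie near each other on chromosome 5. Cxcl1 (gene 14825, 90891241 to 90893115, plus strand) stood at 1383 and 1734 with scrambled shRNA, 3040 and 2232 with BAF250A shRNA and 952 and 1689 with BRD9 shRNA. The BAF250A libraries were above both controls, and the BRD9 libraries overlapped them. Neither value was called in the authors' deposited tables, at 0.74 (SE 0.44) with BAF250A and -0.23 (SE 0.51) with BRD9. The log2 ratio of group means with BRD9, -0.24, became 0.12 without the deeper BRD9 library. Its promoter, shown above, holds a pair of kappaB-like matches close together.

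Cxcl5 (gene 20311, 90759360 to 90761624, plus strand) stood at 3869 and 2442 with scrambled shRNA, 3503 and 3091 with BAF250A shRNA and 749 and 1209 with BRD9 shRNA. The BAF250A values lay between the controls, and the BRD9 values were below both. In the authors' deposited tables its log2 fold change was 0.06 (SE 0.45) with BAF250A, not called, and -1.63 (SE 0.52) with BRD9, called lower. The BRD9 call was lost at an adjusted p below 0.01, with a Bonferroni adjustment and with an empirical null. With the BAF250A knockdown the log2 ratio of group means ran from -0.23 to 0.43 when each library was left out in turn, so it had no settled sign.

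Cxcl12 and Cxcl14 encode chemokines made by resting stromal tissue, and both were higher in the knockdowns. Cxcl12, also called SDF-1, is the ligand of CXCR4 and of the scavenging receptor ACKR3 (gene 20315, chromosome 6, 117168535 to 117181367, plus strand). It stood at 547 and 518 with scrambled shRNA, 7232 and 6955 with BAF250A shRNA and 2846 and 3391 with BRD9 shRNA. The replicates were close in every group, and the 3 groups did not overlap, in the order scrambled, BRD9, BAF250A. The fold over the control mean was 13.3 with BAF250A and 5.85 with BRD9, and the authors' deposited log2 fold changes were 3.66 (SE 0.42) and 2.46 (SE 0.48).

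Cxcl14 encodes a chemokine of epithelium and stroma (gene 57266, chromosome 13, 56288643 to 56296551, minus strand). It had 0 reads in both scrambled shRNA libraries, 266 reads in each BAF250A library and 16 and 64 reads in the BRD9 libraries. In normalized counts these were 332 and 344 with BAF250A and 18.2 and 78.3 with BRD9, and the BRD9 libraries differed by a ratio of 4.30. Against a floor of 3 reads over the control group, which is 1.12 normalized counts and covers counting error only, Cxcl14 was at least 301-fold higher with BAF250A and at least 42.9-fold higher with BRD9. The bound fell to 123-fold with BAF250A without the deeper scrambled shRNA library, and to 177-fold without the shallower one. With BRD9 it fell to 17.6-fold and 25.3-fold without these libraries, to 16.2-fold without the shallower BRD9 library, and rose to 69.7-fold without the deeper one. The authors' deposited log2 values of 9.06 (SE 1.09) and 5.82 (SE 1.15) depend on how the fit treats a group at 0.

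The interleukin-1 receptor antagonist and the pentraxin were both higher with BAF250A shRNA and had different calls with BRD9 shRNA. Il1rn (gene 16181, chromosome 2, 24336853 to 24351494, plus strand) stood at 241 and 158 with scrambled shRNA, 3428 and 3164 with BAF250A shRNA and 31.9 and 120 with BRD9 shRNA. The BAF250A libraries were above both controls and the BRD9 libraries below both. The fold over the control mean was 16.5 with BAF250A. In the authors' deposited tables its log2 fold change was 3.96 (SE 0.45) with BAF250A, called, and -1.31 (SE 0.67) with BRD9, not called. The BRD9 log2 ratio of group means was -1.39, and -2.65 without the shallower or -0.73 without the deeper BRD9 library.

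Ptx3 (gene 19288, chromosome 3, 66219910 to 66225805, plus strand) stood at 105 and 79.5 with scrambled shRNA, 11309 and 8799 with BAF250A shRNA and 357 and 557 with BRD9 shRNA. The 3 groups did not overlap and had the same order as for Cxcl12. The fold over the control mean was 109 with BAF250A and 4.94 with BRD9. The authors' deposited log2 fold changes were 6.62 (SE 0.44) and 2.20 (SE 0.54). Veph1 overlaps Ptx3 on the other strand, and at most 0.871% of the 31-base words of any member transcript were shared with another gene.

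The genes around these members in the same pathways were taken from 7 lists. Their calls stand beside those of all tested genes, 11.2% higher and 17.5% lower with BAF250A, and 5.11% higher and 9.33% lower with BRD9. Of 29 other chemokine ligands 17 were tested. By the authors' deposited tests, 1 was higher and 5 were lower with BAF250A, and 2 were higher and 5 lower with BRD9, with median log2 fold changes of -0.93 and -0.76. Cxcl9 and Cxcl11, which like Cxcl10 encode interferon-induced ligands of CXCR3, were lower in both knockdowns. Cxcl9 stood at 536 and 235 with scrambled shRNA, 0 and 5.17 with BAF250A shRNA and 11.4 and 71.0 with BRD9 shRNA, and Cxcl11 at 16.5 and 11.9 with scrambled shRNA and 0 in all 4 knockdown libraries. Ccl8, a monocyte attractant, fell by 6.21 (SE 0.55) with BAF250A and 6.14 (SE 0.57) with BRD9 on the log2 scale of the authors' deposited tables, and Ccl4, a CC chemokine gene, stood at 20.95 and 25.6 with scrambled shRNA, 2.5 and 0 with BAF250A and 0 and 0 with BRD9. Ccl11, the eosinophil attractant eotaxin, was lower with BAF250A (0 in both libraries against 23.5 and 17.4) and not called with BRD9 (45.5 and 17.1). The most abundant uncalled ligands were Cxcl16 and Ccl25, with log2 values of 1.01 and -0.75 with BAF250A and 0.62 and -0.78 with BRD9 in the authors' deposited tables.

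**Figure D3:**
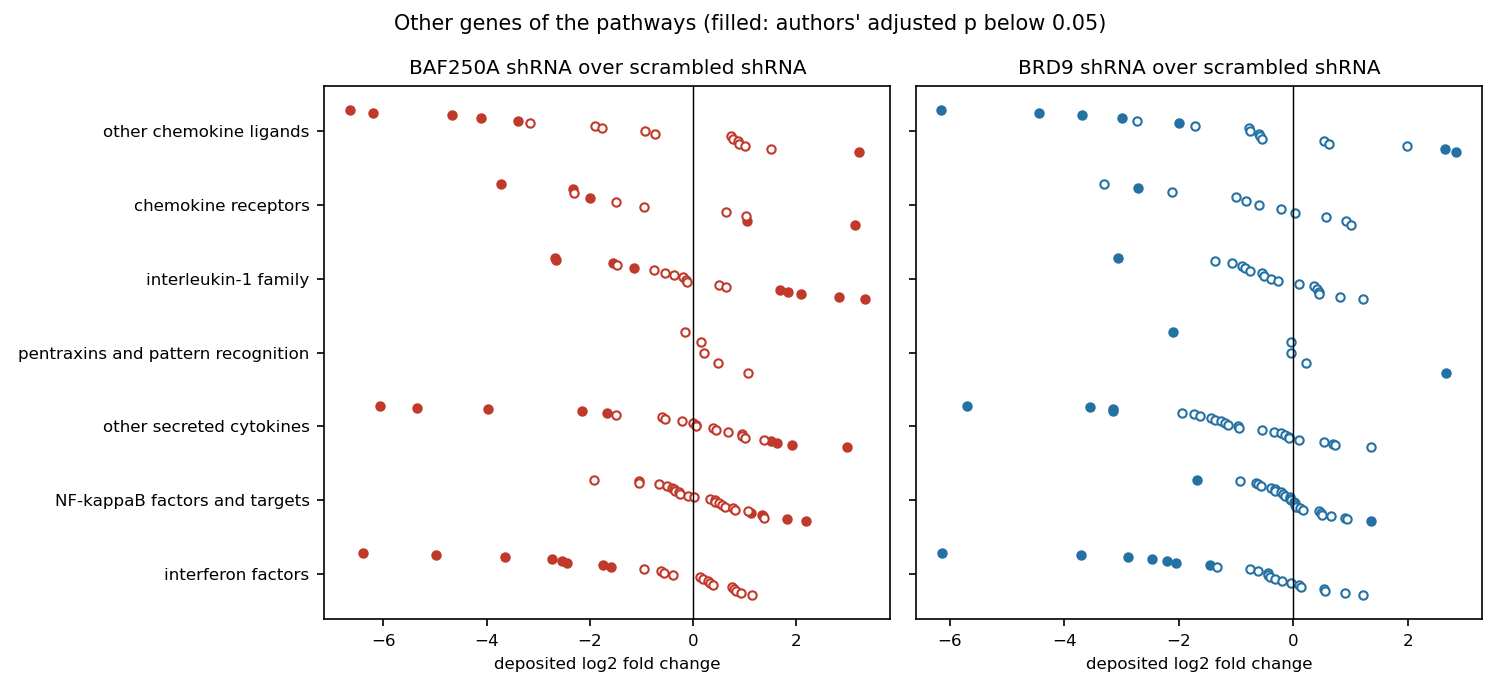
The authors' log2 fold change over scrambled shRNA (horizontal axis) of every tested gene in 7 pathway lists, BAF250A on the left and BRD9 on the right. Each point is a gene, sorted within its list, and filled points have an adjusted p below 0.05. The called interferon factors are all to the left of 0 in both panels, and the called NF-kappaB genes are all to the right of 0 in the BAF250A panel. Over all tested genes, 11.2% were called higher and 17.5% lower with BAF250A, and 5.11% higher and 9.33% lower with BRD9.

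Of 23 chemokine receptor genes 10 were tested with BAF250A, 2 higher and 3 lower, and 11 with BRD9, 0 higher and 1 lower, with medians of -1.22 and -0.60 in the authors' deposited tables. Ackr3, which encodes the scavenging receptor for the Cxcl12 product, was higher with BAF250A, at 2847 and 2838 against 1416 and 1294, and not called with BRD9. Cxcr4, the signalling receptor for Cxcl12, was called in neither table, with log2 values of 0.64 and 1.01, and was among the most abundant uncalled receptors with Cxcr5 (-0.95 and -0.22), all from the authors' deposited tables. Ackr4, a scavenger of CC chemokines, was higher with BAF250A, at 152 and 184 against 15.9 and 19.2. Ccrl2, which presents chemerin, was lower in both knockdowns, with log2 values of -1.99 (SE 0.76) for BAF250A and -2.71 (SE 0.82) for BRD9 in the authors' deposited tables. Ccr10 and Xcr1 were lower with BAF250A, Ccr10 at 11.2 and 10.3 against 58.4 and 62.2, and Xcr1 at 0 in both libraries against 13.97 and 8.23.

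Of 20 other genes of the interleukin-1 family and its signalling 18 were tested with BAF250A, 5 higher and 4 lower, and 17 with BRD9, 0 higher and 1 lower, with medians of -0.17 and -0.39 in the authors' deposited tables. Il1b, the gene of the agonist that the Il1rn product blocks, was lower with BAF250A, at 7.49 and 0 against 20.3 and 43.9, and not called with BRD9 at 15.9 and 17.1. The receptor gene Il1r1 was called in neither, at 0.65 (SE 0.53) with BAF250A and 0.42 (SE 0.61) with BRD9 in the authors' deposited tables, nor was the kinase gene Irak1. Il1rl1, which encodes the interleukin-33 receptor, rose with BAF250A to 257 and 274 from 34.9 and 12.8. Il18rap, an interleukin-18 receptor subunit, rose to 245 and 248 from 39.996 and 24.7, and Irak3, an inhibitor of the pathway, to 162 and 149 from 34.9 and 34.7. Il18bp, which encodes a secreted inhibitor of interleukin-18, was lower in both knockdowns, at 232 and 391 with scrambled shRNA, 49.9 and 41.4 with BAF250A shRNA and 29.6 and 36.7 with BRD9 shRNA.

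Of 14 genes for other pentraxins, partners of PTX3 and soluble pattern recognition molecules 5 were tested. By the authors' deposited Wald test (DESeq2), 0 were called with BAF250A and 0 had an unadjusted p below 0.05, and 1 was higher and 1 lower with BRD9 (medians 0.21 and -0.04). Nptx1, a neuronal pentraxin gene, was higher with BRD9, at 567 and 524 against 83.2 and 75.9. Tnfaip6, whose product binds PTX3 in the hyaluronan matrix, was lower with BRD9, at 20.5 and 9.79 against 75.5 and 72.2. Colec12 was called in neither table.

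Of 29 other secreted cytokines and acute phase proteins 23 were tested with BAF250A, 4 higher and 5 lower, and 25 with BRD9, 0 higher and 4 lower (medians 0.06 and -0.97 in the authors' deposited tables). Saa3, an acute phase gene, stood at 2023 and 5918 with scrambled shRNA, 59.9 and 41.4 with BAF250A shRNA and 23.9 and 91.8 with BRD9 shRNA, all below the controls. Ifnb1, the interferon beta gene, was at 8.89 and 17.4 with scrambled shRNA and had 0 reads in all 4 knockdown libraries. Tnfsf10, the gene of TRAIL, stood at 36.2 and 29.3 with scrambled shRNA, 0 and 0 with BAF250A and 2.28 and 2.45 with BRD9. Lcn2, an iron-binding acute phase gene, was higher with BAF250A at 142 and 166 against 6.98 and 28.3, and Hp, the haptoglobin gene, was lower with BRD9 at 2.28 and 0 against 5.71 and 43.0. Csf1 and Spp1, the most abundant uncalled genes of the list, were called in neither table.

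Of 27 NF-kappaB factors, inhibitors and textbook targets, all tested, 5 were higher and 0 lower with BAF250A, and 1 was higher and 1 lower with BRD9. The medians were 0.43 with BAF250A and -0.04 with BRD9 in the authors' deposited tables. Over all tested genes 11.2% were called higher and 17.5% lower with BAF250A, and 5.11% higher and 9.33% lower with BRD9. The list was chosen with earlier results known, so nothing is read from these counts. Vcam1, a leukocyte adhesion molecule, rose by 2.18 (SE 0.43) with BAF250A and 1.35 (SE 0.49) with BRD9 on the log2 scale of the authors' deposited tables. Ptgs2, which encodes the inducible cyclooxygenase, was higher with BAF250A (2553 and 2559) and lower with BRD9 (299 and 110) than with scrambled shRNA (960 and 431). Tnfrsf1b, Birc2 and Bcl3 were higher with BAF250A, with log2 fold changes in the authors' deposited table of 1.35 (SE 0.42), 1.34 (SE 0.50) and 1.13 (SE 0.46). Tnfaip2 and Tnfrsf1a were called in neither.

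Of 23 interferon-inducing and interferon-response factors 22 were tested, with 0 higher and 8 lower with BAF250A and 0 higher and 7 lower with BRD9. Over all tested genes 17.5% were called lower with BAF250A and 9.33% with BRD9. The medians of the list were -0.47 with BAF250A and -0.44 with BRD9 in the authors' deposited tables. Irf7, the master factor of type I interferon induction, fell by 6.41 (SE 0.50) with BAF250A and 6.14 (SE 0.54) with BRD9 in the authors' deposited tables, with adjusted Wald p of 1.2e-34 and 1.7e-27. Irf9, which encodes the DNA-binding part of the interferon-response complex, stood at 3308 and 6061 with scrambled shRNA, 131 and 140 with BAF250A and 567 and 598 with BRD9. Tlr3, a receptor for double-stranded RNA, stood at 813 and 347 with scrambled shRNA, 47.4 and 37.5 with BAF250A shRNA and 47.8 and 29.4 with BRD9 shRNA. In the authors' deposited tables Ifih1, another RNA sensor, fell by 2.74 (SE 0.55) with BAF250A and was not called with BRD9. Irf1 and Jak1 were called in neither table.

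**Figure D4:**
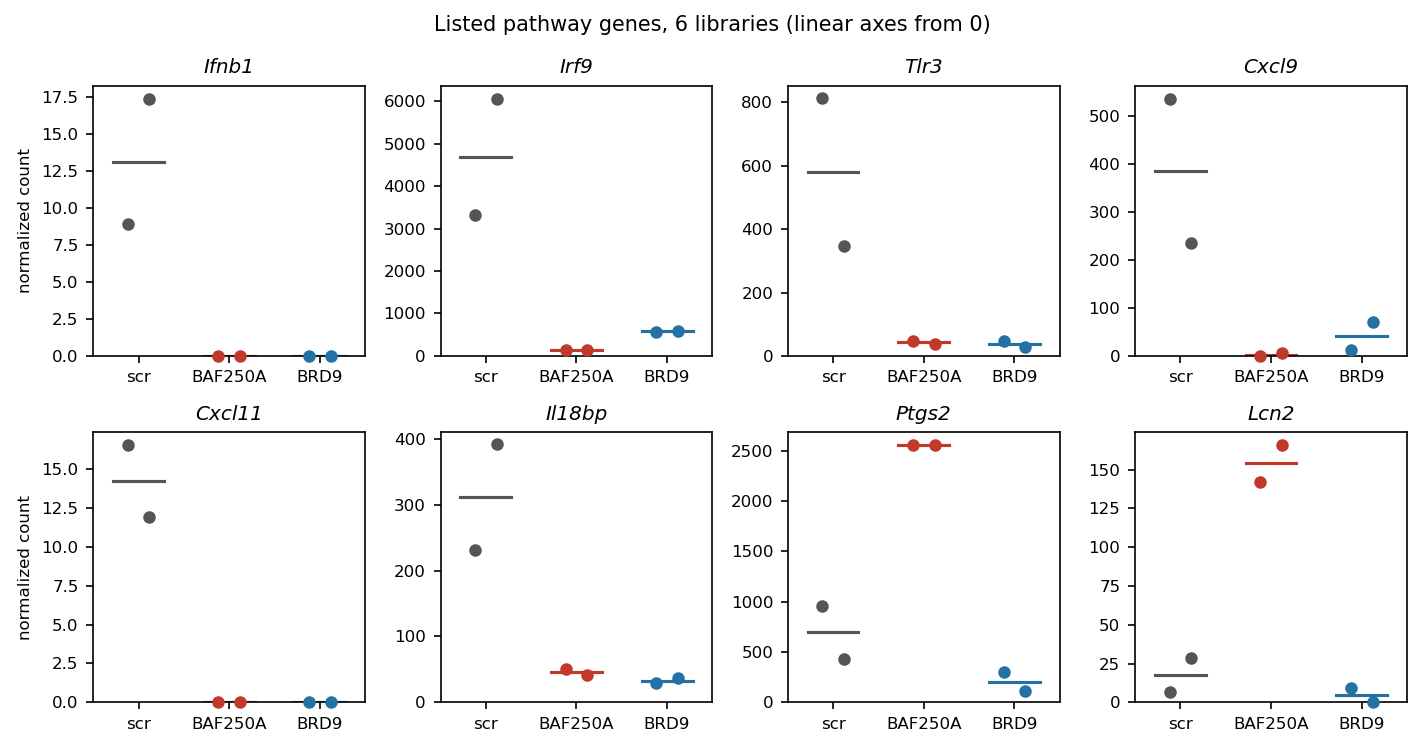
Normalized count (linear vertical axis from 0, its own range per gene) of 8 pathway genes in the scrambled (scr), BAF250A and BRD9 shRNA groups. Points are libraries, the deeper one on the left of each pair, and bars are group means of 2 libraries. Ifnb1 and Cxcl11 are at 0 in all 4 knockdown libraries, and Ptgs2 is above the controls with BAF250A shRNA and below them with BRD9 shRNA.

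Between the knockdowns, 2.54% of 16311 genes differed at an adjusted p below 0.05 by a z test on the deposited log2 fold changes. Among the listed genes 8 differed. Of 17 other chemokine ligands tested, 1 was higher and 3 were lower with BAF250A than with BRD9. The count was 1 of 17 interleukin-1 family genes, 1 of 5 pentraxin and partner genes, and 1 of 23 cytokines. It was 1 of 27 NF-kappaB genes, 0 of 10 receptors and 0 of 22 interferon factors. The lists were chosen with earlier results known, so nothing is read from these counts. Ptgs2 differed by 3.50 (BAF250A minus BRD9, log2), Lcn2 by 4.43 and Il33, an alarmin of the interleukin-1 family, by 2.45. Ccl9, a CC chemokine gene, differed by 2.77, Cxcl9 by -3.66, Cxcl13 by -4.61, Ccl11 by -5.21 and Nptx1 by -2.82. With BAF250A, Ccl11 had 0 reads in both libraries and Cxcl9 had 0 and 4. The sizes of their differences therefore depend on how the fit treats a group at or near 0. The shared control libraries cancel in this difference, which the standard error does not take into account.

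Markers of other cells were measured beside these values, since fewer cells of a type and less RNA per cell cannot be told apart in bulk RNA. Of 11 leukocyte markers, Ptprc, Adgre1, Cd3e, Ly6g and S100a8 were among those below 5 normalized counts in every library. The summed level of the 11 was 802 and 1469 with scrambled shRNA, 403 and 534 with BAF250A shRNA and 378 and 265 with BRD9 shRNA, of which Cd14 alone was 655 and 1248 with scrambled shRNA. By the authors' deposited tests, 1 leukocyte marker was higher and 2 were lower in each knockdown: Cd68 and Cd14 were lower in both, Lyz2 was higher with BAF250A (54.9 and 44.0 against 1.27 and 2.74) and Itgam was higher with BRD9 (58.0 and 14.7 against 1.90 and 0.914). The summed level, most of it Cd14, was lower in the knockdowns, as were Cxcl10, Ccl5 and Ccl2, and its part in these values was not tested. Of 8 skeletal muscle markers 6 were lower with BAF250A, and 1 was higher and 1 lower with BRD9. In the authors' deposited table for BAF250A, Ckm was at -5.24 (SE 0.55) and Myh3 at -4.38 (SE 0.44). Of 4 fibroblast markers 3 were higher with BAF250A and 1 with BRD9, and Col1a1 rose by 4.58 (SE 0.41) with BAF250A and 2.60 (SE 0.48) with BRD9 in the authors' deposited tables. Pdgfra was not called in the authors' deposited table for BRD9, at 0.94 (SE 0.54), and Thy1 had 0 reads in both BRD9 libraries. Dcn was called in neither deposited table, at 0.01 (SE 0.50) with BAF250A and 0.94 (SE 0.66) with BRD9. The summed level of the 3 markers other than Col1a1 was 2847 and 1224 with scrambled shRNA and 3804 and 3361 with BAF250A shRNA. With BRD9 shRNA it was 6418 and 1800, which overlapped the controls. Most of this sum was Dcn over the BRD9 comparison, where the authors' deposited means were 2807 for Dcn, 411 for Pdgfra and 0.64 for Thy1. Over the BAF250A comparison they were 1778, 1020 and 10.1. Col1a1 was thus the only one of the 4 called higher in both knockdowns, as were Cxcl12, Cxcl14 and Ptx3. The part of the fibroblast genes in these values was not tested. Of the muscle markers that define the labelled cell type, Des was abundant, at a mean of 138937 normalized counts over the BAF250A comparison and 168238 over the BRD9 comparison in the authors' deposited tables.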

How the data were processed

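RNA sequencing tables for 6 libraries in 3 groups were used. Their upstream tools are listed, without roles or versions, in the submitters' processing notes as DESeq2, RSEM, Bowtie, StringTie and HISAT, with build mm10. The authors deposited, per the file headers, a mean normalized count per gene, a signal averaged over the 4 libraries of a comparison. The other deposited columns are, per the file headers, a log2 fold change with its standard error, a Wald score, a p-value and an adjusted p-value. The deposited tables hold no values per library and the depth of a library is known only as its size factor.

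Of 213 genes listed, 182 were tried and whole reads per library were worked out for 181, by solving each mean as whole multiples of the steps of its libraries. For 146 the solution kept was the one that gave back the authors' fold change, within 1e-05 at their error, in a negative binomial fit with a normal prior on the fold change. For the other 35, with few or no reads in a group, the fold change was not given back (by up to 0.68) and the only whole-number solution was used. In each comparison, the 2 libraries whose single-read genes had a negative fold change were taken as the controls. Their whole reads were required to be the same in both comparisons. Another 24 genes above a mean of 4000 were not tried, 7 were absent, and Ccl8 was tried and could not be fitted. The deposited fold changes are shrunken by that prior. For members with reads in every group they are slightly smaller in size than ratios of group means. The gap can be larger for genes with few reads, as for Ccl4 with BAF250A, at -3.39 deposited and -4.22 as a log2 ratio. No ratio exists where a group has 0 reads. Both this step and the z test between knockdowns (Benjamini-Hochberg over 16311 genes) were run on simulated data, with outcomes not reported here. The simulated z test gave the comparisons independent errors, so it did not cover the effect of the shared controls. The simulated reads left out the most abundant genes, among them Cxcl10, Ccl5, Cxcl12 and Ptx3. No count model was used for testing, and the authors' Wald test at an adjusted p below 0.05 was used as deposited. With 2 libraries per group, p-values rest on the authors' model of the spread between duplicates, not on a gene's own libraries alone. They do not cover differences between separately made lines. Because the controls are shared, a change in both knockdowns cannot be told apart from a trait of the scrambled shRNA cells or their libraries.

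The members and lists were chosen with earlier results of these data known. From each list the text names up to 5 called genes with the largest change and the 2 most abundant uncalled ones. Some genes that this rule or the marker lists hold are not reported here by name. Gene positions come from GENCODE M21, matched by symbol, and promoters from RefSeq. Genes at 0 in a group were also set to the bound of 3 reads over the group, which moved the median of the cytokine list with BRD9 from -0.97 to -0.95 and no other list median. Alternatives were other thresholds, an empirical null, a filter at a mean of 10, a shorter promoter window and leaving out each library. Work was done in Python 3.11.15 with numpy 2.4.6 and scipy 1.17.1.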

Additional observations from a re-analysis of the deposited data

Results flagged for a closer look

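Among the listed pathway genes, 8 differed between the knockdowns by the z test on the deposited log2 fold changes (BAF250A minus BRD9): Cxcl9 by -3.66, Cxcl13 by -4.61, Ccl9 by 2.77, Ccl11 by -5.21, Il33 by 2.45, Nptx1 by -2.82, Lcn2 by 4.43 and Ptgs2 by 3.50. Over all genes, 2.54% of 16311 differed by this test. The BRD9 libraries differed widely for Cxcl13, at 266 and 26.9 normalized counts against 15.2 and 17.4 with scrambled shRNA. The sizes for Ccl11 and Cxcl9 rest on BAF250A groups with 0 and 0 reads and with 0 and 4 reads.

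For Ccl7 and Il1rn, both BAF250A libraries were above both controls and both BRD9 libraries below both controls, and this difference was not tested. The log2 ratio of group means was 0.48 with BAF250A and -1.11 with BRD9 for Ccl7, and 4.05 and -1.39 for Il1rn. Of these, only Il1rn with BAF250A was called in the authors' deposited tables, and several members were picked for such changes. How often other genes show this order of libraries was not determined, so nothing is read from it.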

How the results depend on the processing

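No paired analysis was possible because the deposited tables carry no replicate letters and the recovered libraries cannot be matched to them. Of the members called with BAF250A (7), 6 were left at an adjusted p below 0.01, with Bonferroni adjustment, without the filter on low means and with an empirical null, Ccl2 being the one lost. Of the members called with BRD9 (7), 6 were left at an adjusted p below 0.01, Cxcl5 being lost, and 4 with Bonferroni adjustment or an empirical null, in both cases Cxcl10, Cxcl12, Cxcl14 and Ccl5.

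Of the 42 listed genes called with BAF250A, 15 were left with Bonferroni adjustment and 6 with an empirical null, and of the 24 called with BRD9, 9 and 9. Over all genes the counts went from 4729 to 1565 and 693 with BAF250A, and from 2483 to 940 and 873 with BRD9. Of the 8 listed genes that differed between the knockdowns, 2 were left at an adjusted p below 0.01 and 0 with Bonferroni adjustment, and the count was 13 with an empirical null; the cause was not tested. With 150 bases before the start the interferon-response-like motif was in 0 of the members' promoters. Leaving out a library in turn was run for ratios of group means of the members and not for the authors' calls. These ratios kept their sign except Cxcl1 with BRD9 (-0.71 to 0.12) and Cxcl5 with BAF250A (-0.23 to 0.43). The smallest called changes of any gene were 1.02 (BAF250A) and 1.29 (BRD9) in log2 size. Changes below these sizes were not called, and larger ones could also go uncalled, such as Il1rn with BRD9 at -1.31 (SE 0.67).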
